A study of Mus musculus with 4 samples.

Results

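The genes described are 10 components and targets of the YAP and TEAD pathway: the coactivator genes Yap1 and Wwtr1 (which encodes TAZ), the DNA-binding partners Tead1 and Tead2, the kinase gene Lats2, and the targets Cyr61, Ctgf, Ankrd1, Amotl2 and Axl. They were chosen by symbol, and all 10 had a row among the 31054 genes and features counted in each library. Their transcripts were counted in single Bmi1-GFP mouse intestinal epithelial cells, sorted by flow cytometry and read with a 10x Genomics 3′ assay that counts unique molecular identifiers (UMIs). Bmi1-GFP is a reporter strain in which GFP marks cells that express the Polycomb gene Bmi1, and all 4 libraries carried it. The 4 groups, each of 1 library, were embryos at embryonic day 12.5 (E12.5), embryos at E17.5, adult mice and irradiated adult mice. The radiation dose, the interval to collection and the number of animals behind a library are not given in the sources used here. With 1 library per group, no difference has a replicate check, and no test between groups was possible. The intervals printed cover counting error at the 95% level only.

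The Hippo pathway is a kinase cascade in which LATS kinases phosphorylate YAP and TAZ and keep them out of the nucleus. Unphosphorylated YAP and TAZ bind TEAD proteins, which recognise the DNA motif GGAATG and its close variants, and switch on genes of growth, adhesion and the matrix. In the intestine YAP is best known for its part in regrowth of the epithelium after injury, including injury by radiation. These genes report on the pathway at the level of RNA only, since its activity is set largely by phosphorylation and location of the proteins.

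A floor of 500 genes per cell and a ceiling of 20% mitochondrial UMIs were set, and likely doublets were removed. This left 4050, 4409, 3597 and 3031 cells in the E12.5, E17.5, adult and irradiated adult libraries. The deposited barcodes held between 38648331 and 90674425 UMIs per library. Median UMIs per kept cell ran from 3607 in the adult to 18081.5 at E12.5, so shares of cells are given after thinning every cell to 2000 UMIs. Libraries shared 6 to 12 barcodes per pair. Cell classes were rebuilt by clustering without these genes and are called "-like" after their markers. A set of gut epithelial cells outside the enteroendocrine and tuft lineages, called the other epithelial cells, held 3268, 1976, 401 and 270 cells in the same order. The label of intestinal epithelium did not cover every cell: the E17.5 library also held 535 pancreatic acinar-like, 139 islet beta-like, 118 fibroblast-like and 119 smooth muscle-like cells. Cells with a GFP UMI were few after thinning: 140 of 3186 other epithelial cells in the E12.5 library, and 2, 0 and 1 cells in the later ones. Without thinning the shares were 39.9%, 2.31%, 2.54% and 27.9%, and how well the counted eGFP feature reads the reporter transcript was not tested.

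The upstream sequences of 4 targets are shown first because the binding motif of the TEAD proteins is part of how a target is recognised. RefSeq sequences (GRCm38.p6) of the 250 bases before the annotated start were matched for 8 of the 10 genes, all but Ctgf and Tead1. GGAATG or its complement CATTCC was present in 6 of the 8 (75.0%), and in 14.4% of 27025 genes with a window of the same length. The motif is in capitals below, and each sequence is written 5′ to 3′ on the strand of the gene.
Cyr61: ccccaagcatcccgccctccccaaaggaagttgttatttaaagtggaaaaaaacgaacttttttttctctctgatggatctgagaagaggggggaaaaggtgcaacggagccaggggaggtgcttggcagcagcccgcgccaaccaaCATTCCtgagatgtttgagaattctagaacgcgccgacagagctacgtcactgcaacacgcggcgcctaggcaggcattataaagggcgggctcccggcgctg
Ankrd1: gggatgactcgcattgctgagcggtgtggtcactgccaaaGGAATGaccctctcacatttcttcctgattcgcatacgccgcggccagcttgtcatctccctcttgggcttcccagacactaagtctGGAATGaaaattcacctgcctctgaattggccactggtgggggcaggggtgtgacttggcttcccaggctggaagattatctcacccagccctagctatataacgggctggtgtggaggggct
Amotl2: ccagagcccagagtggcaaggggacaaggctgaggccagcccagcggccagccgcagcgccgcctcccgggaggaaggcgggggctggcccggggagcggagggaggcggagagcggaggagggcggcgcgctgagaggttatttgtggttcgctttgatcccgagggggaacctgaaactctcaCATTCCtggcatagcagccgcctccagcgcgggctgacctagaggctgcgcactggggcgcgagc
Axl: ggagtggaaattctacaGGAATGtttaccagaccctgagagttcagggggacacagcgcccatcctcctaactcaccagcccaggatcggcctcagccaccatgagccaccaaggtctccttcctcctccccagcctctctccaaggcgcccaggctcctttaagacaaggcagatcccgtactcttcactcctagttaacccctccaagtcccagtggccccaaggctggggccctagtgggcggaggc
The Cyr61 window (chr3:145649986-145650235, minus strand) held 1 motif, which began 103 bases before the start. The Ankrd1 window (chr19:36119845-36120094, minus strand) held 2 motifs, the nearer of which began 123 bases before the start. The Amotl2 window (chr9:102717554-102717803, plus strand) held 1 motif at 65 bases, and the Axl window (chr7:25788734-25788983, minus strand) held 1 at 233 bases. A match is a stretch of letters and not a measured binding site, and no binding was measured here. Among the regulators, the Yap1 window held a motif 141 bases and the Wwtr1 window 136 bases before the start, and no match was found in the windows of Tead2 and Lats2. Starts are those of RefSeq. The windows of Ankrd1, Amotl2 and Lats2 lie inside the GENCODE spans given below, and the bases before those GENCODE starts were not read.

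In GENCODE M21 (GRCm38), the coactivator genes lie at chr9:7931999-8004596 on the minus strand (Yap1) and chr3:57455649-57575910 on the minus strand (Wwtr1). Tead1 spans chr7:112679318-112906807 and Tead2 chr7:45215753-45233644, both on the plus strand. Lats2 lies at chr14:57689662-57758388 on the minus strand. The target Cyr61, listed there as Ccn1, is at chr3:145646976-145649981 on the minus strand, and Ctgf, listed as Ccn2, at chr10:24595442-24598683 on the plus strand. Ankrd1 is at chr19:36111961-36120099 on the minus strand, Amotl2 at chr9:102716672-102733418 on the plus strand and Axl at chr7:25757273-25788705 on the minus strand.

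Of the 10 genes, 8 were at least 2-fold lower in the other epithelial cells at E17.5 than at E12.5, and none was at least 2-fold higher. The fold was largest for Tead2, a TEAD gene known for its expression in the early embryo, and the lower genes also took in Tead1, Wwtr1, Lats2 and 4 targets. Yap1 and Ankrd1 stayed within 2-fold. Levels are CPM, a gene's share of all UMIs of a class of cells, summed over the cells and scaled to counts per 1e6, and a gene was called at a ratio of 2-fold or more after adding 1 CPM to both levels, if it had at least 50 UMIs over both groups. By that rule 12.9% of the 13962 genes compared were higher and 20.3% lower at E17.5. The median log2 ratio was -1.66 over the 10 genes and -0.30 over all genes compared.

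In the other epithelial cells, Tead2 was at 138, 5.69, 3.38 and 1.53 CPM in the E12.5, E17.5, adult and irradiated libraries. The E17.5 level was 24.2-fold below that of E12.5 (21.5 to 27.2). Tead1, which encodes the TEAD protein found most widely across tissues, was at 60.1, 24.7, 18.7 and 18.9 CPM in the same order. Within this set of cells both TEAD genes were therefore highest in the E12.5 library. The levels of Tead1 in the adult and irradiated libraries had overlapping intervals. Yap1 was at 47.6, 25.3, 15.5 and 13.4 CPM, 1.88-fold lower at E17.5 than at E12.5 (1.76 to 2.00). Wwtr1 was at 7.99, 2.07, 2.41 and 2.86 CPM. Both coactivator genes were thus highest at E12.5 within the same set, and the intervals of Wwtr1 overlapped among the other 3 libraries. Lats2, whose product inhibits YAP and TAZ and is itself one of their targets, was at 7.93, 1.06, 0.724 and 2.02 CPM.

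Cyr61 encodes a secreted matrix protein of the CCN family and is among the most used readouts of YAP activity. Its level at E12.5 was 248 CPM (245 to 252) and at E17.5 72.2 CPM (69.9 to 74.6). Adult cells had 47.5 CPM (43.7 to 51.5) and irradiated adult cells 27.8 CPM (25.2 to 30.7). None of the 4 intervals overlapped, but the sets of cells differed in class make-up. Enterocyte-like cells gave 37.9% of the UMIs at E17.5. In the adult, stem-like cells gave 41.5% and Paneth-like cells 31.6%. Adult stem-like cells alone had Cyr61 at 80.1 CPM. Without Paneth-like cells the adult and irradiated levels were 49.5 and 46.3 CPM. The part of make-up in the differences was not tested. After thinning, a Cyr61 UMI was found in 35.3%, 13.9%, 8.89% and 8.50% of the cells of the E12.5, E17.5, adult and irradiated libraries. Without thinning the shares were 83.4%, 49.3%, 29.4% and 42.2%. As a level for free RNA, 0.735% of 136 thinned islet beta-like cells of the E17.5 library (median 10548 UMIs) held a Cyr61 UMI.

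Ctgf, the second CCN family target, was at 6.53, 2.42, 0.0805 and 4.95 CPM in the E12.5, E17.5, adult and irradiated libraries. Amotl2, an angiomotin-family gene whose product binds YAP and restrains it, was at 30.2, 3.94, 2.17 and 3.35 CPM. Axl, a receptor tyrosine kinase gene, was at 21.99, 3.98, 0 and 1.26 CPM. All 3 were lower at E17.5 than at E12.5, by 2.69-fold for Ctgf (2.21 to 3.31), 7.68-fold for Amotl2 (6.64 to 8.91) and 5.53-fold for Axl (4.77 to 6.42). Ankrd1, which encodes a nuclear ankyrin-repeat protein, was at 0.701 CPM at E12.5 and 0.749 at E17.5, with 54 and 38 UMIs. It was sparse in each library, with 0 UMIs in the adult and 8 after irradiation.

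**Figure D1:**
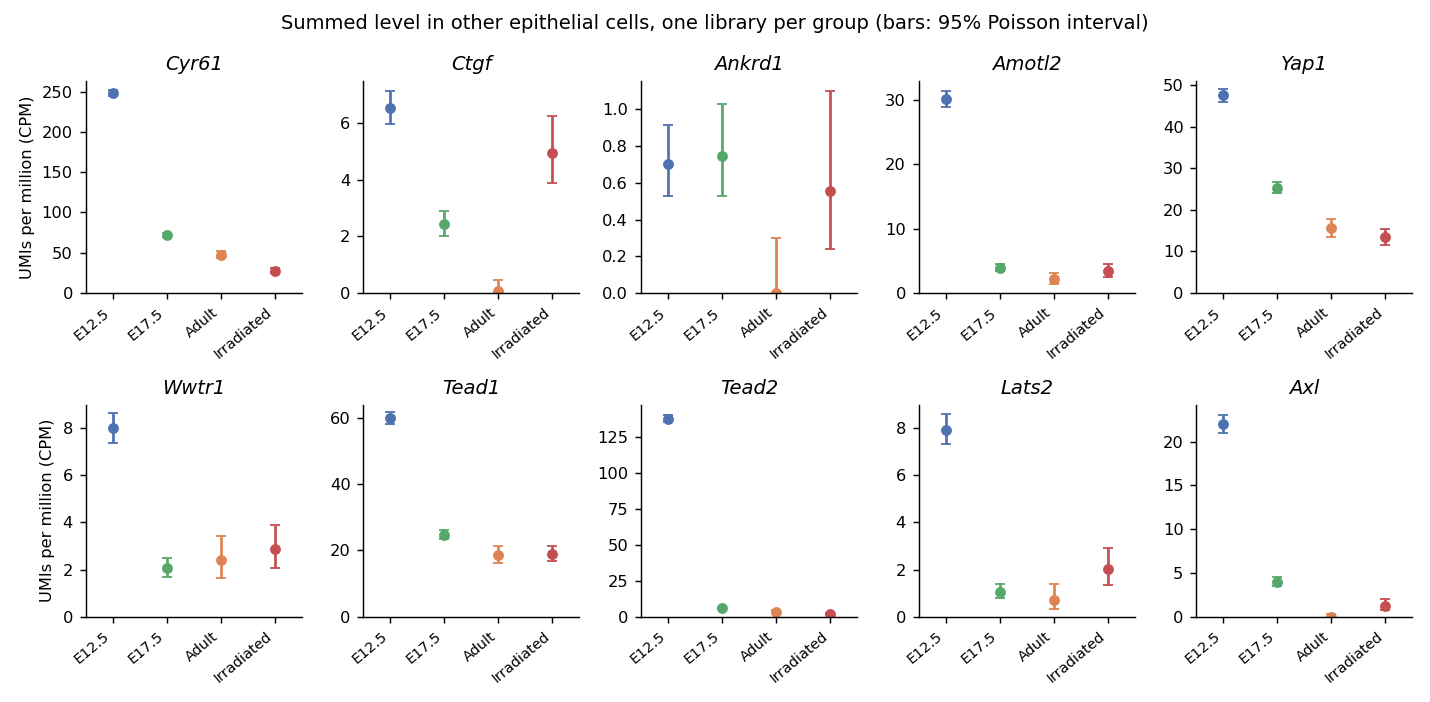
Level of each of the 10 genes (1 panel each) in the other epithelial cells of the 4 libraries (y axis, CPM, linear from 0). Points are summed levels and bars exact Poisson 95% intervals for counting error. Tead2 is at 138 CPM at E12.5 and 5.69 at E17.5, and the adult has no UMI of Axl or Ankrd1.

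Each of 2 other scalings left 6 of the 8 genes called lower. Scaled by trimmed means (TMM), Ctgf (-0.90) and Tead1 (-0.96) came within 2-fold on the log2 scale. As the mean of the CPM of single cells, Ctgf (-0.59) and Wwtr1 (-0.53) did so. The split of calls over all genes also moved, from 39.0% higher under total UMIs to 53.6% under TMM, which shifted the median by 0.25. Cells of the E12.5 library also carried more mesenchymal marker RNA: the 10 markers summed to 544 CPM there and to 42.6, 16.8 and 37.5 CPM in the E17.5, adult and irradiated libraries. Of the sum at E12.5, Vim made up 471 CPM and Postn 63.7, while Lum was at 0 and Col1a1 and Dcn were at 0.182 and 1.66 CPM. In the E12.5 cluster with the lowest sum, 99.95 CPM (361 cells), Tead2 was at 134 CPM, Amotl2 at 21.5, Axl at 14.5 and Cyr61 at 150.1.

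Within the E12.5 epithelium Cyr61 differed between clusters, and Tead2 and Yap1 differed less. Over its 9 epithelial clusters Cyr61 ran from 74.4 CPM, in 79 cells led by the hindgut gene Hoxb13, to 354 CPM. Tead2 ran only from 131 to 149 CPM over the same clusters, and Yap1 from 37.4 to 54.8. Wwtr1 ran from 5.75 CPM (4.21 to 7.68) to 13.5 CPM in the Hoxb13 cluster (8.27 to 20.9), and those intervals did not overlap. The 2 clusters led by Sfrp5 and Onecut2 had Cyr61 at 159 and 150.1 CPM. The 2 clusters led by Vim, Sp5 and Osr2 had it at 354 and 332 CPM. Immediate early genes, which respond within minutes to growth factors and to tissue dissociation and with which Cyr61 shares that property, moved beside it. Their 11 genes summed to 1801 and 1586 CPM in the first pair and 2875 and 2463 in the second, and their part in the difference was not tested. The mesenchymal sums of these pairs were 147 and 99.95 CPM against 837 and 846. Ankrd1 reached 3.01 CPM in a cluster led by Postn (292 cells), against 0.701 over the epithelium as a whole.

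**Figure D2:**
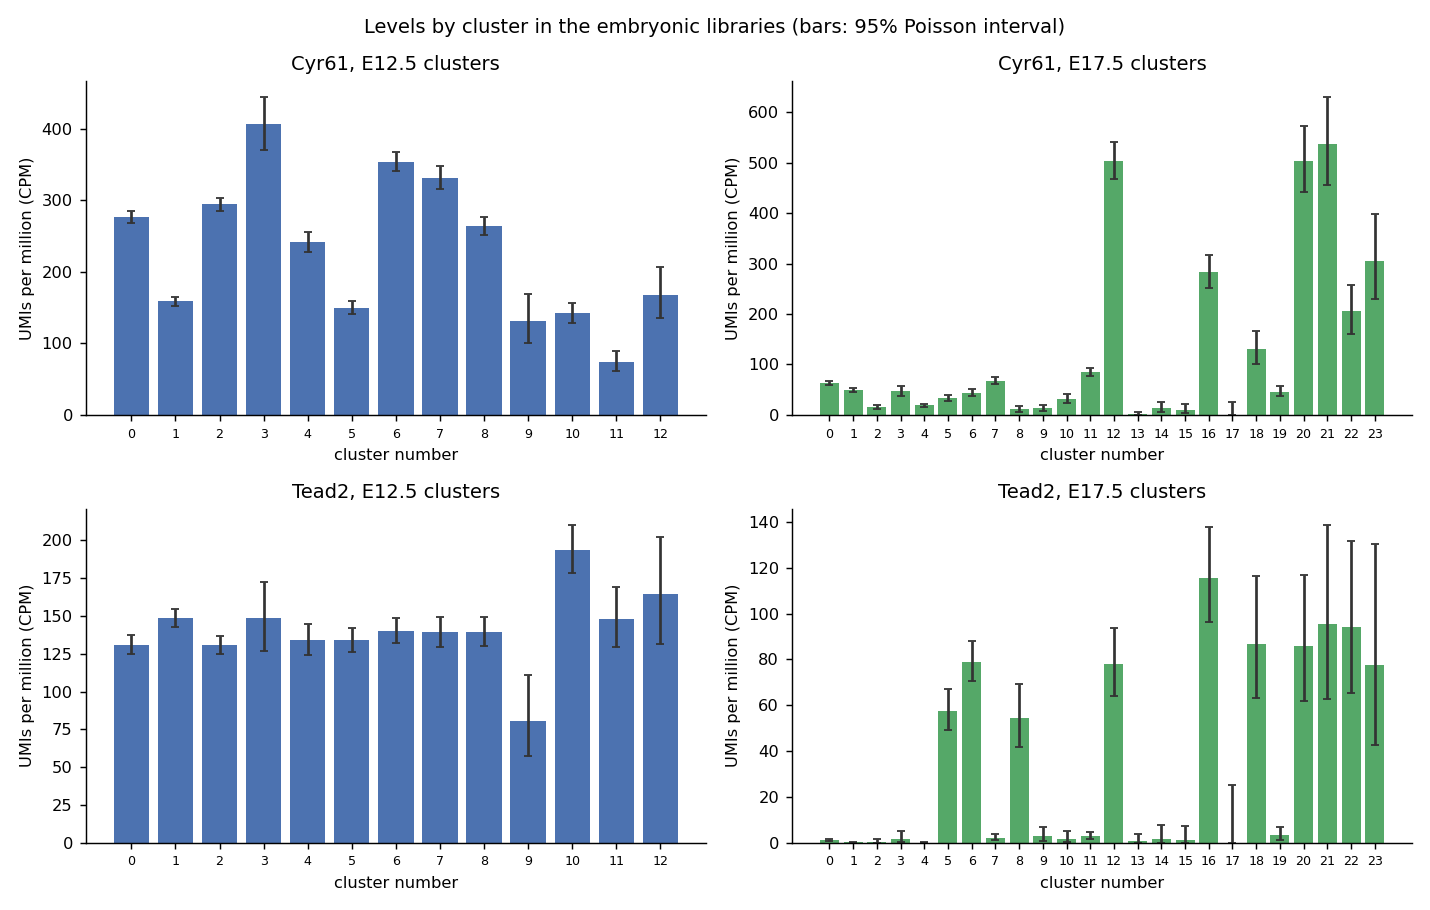
Summed level of Cyr61 (top) and Tead2 (bottom) in each cluster of the E12.5 (left) and E17.5 (right) libraries (x axis, cluster number; y axis, CPM; lines, exact Poisson 95% intervals). At E17.5 Cyr61 reaches 503 CPM in cluster 12 and 283 in cluster 16, and high bars at 18 and 20 to 23 are smooth muscle-, fibroblast- and mesothelial-like cells.

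Joint detection with Cyr61 was compared in single cells of the E12.5 epithelium. Among 3186 thinned cells, Amotl2 was detected in 6.67% of those with Cyr61 and 4.71% of those without, and the intervals overlapped (5.28 to 8.29 and 3.83 to 5.71). The intervals overlapped as well for the other 8 genes. Overlapping intervals do not show that a link is absent, and thinning lowers the chance of finding both genes in a cell. Whether these genes were detected together more often than apart was therefore not settled. Many cells without a GFP UMI after thinning held one before it, so a split by the reporter mixes both kinds. It gave Cyr61 at 264 CPM (208 to 332) in cells with a GFP UMI and 250 (237 to 262) in those without. Yap1 was at 14.3 CPM (3.89 to 36.6) in cells with GFP and 48.3 (42.9 to 54.1) in those without, from 4 UMIs in the former. It was the only gene whose intervals did not overlap, and is named for that reason. Among the rest, some were higher with GFP, such as Axl (35.7 and 21.5 CPM) and Lats2 (17.9 and 7.55). Others were lower, such as Tead2 (125 and 144 CPM).

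At E17.5, 2 small epithelial clusters stood out with high levels of Tead2, Wwtr1 and 4 of the 5 targets. The rest of the other epithelial cells held 50 of the 123 Ctgf UMIs and 0 of the 38 Ankrd1 UMIs, but 2637 of the 3667 Cyr61 and 198 of the 202 Axl UMIs. Amotl2 was at 2.09 CPM in the rest and 3.94 with both clusters. Cluster 12 (141 cells) was led by Akr1b7, Tff2, Spp1 and Stmn2, and cluster 16 (91 cells) by Spp1, Fmo2 and Bicc1. Cyr61 was at 503 CPM in cluster 12 and 283 in cluster 16, and between 0 and 84.2 in the other epithelial clusters of the library. Tead2 was at 77.8 and 116 CPM, against at most 3.16 in those other clusters. Wwtr1 was at 33.4 and 37.9 CPM, Amotl2 at 38.2 and 40.7 and Ctgf at 29.2 and 28.7. In the 529 cells of the most numerous epithelial cluster the same 3 genes were at 0.296, 1.48 and 0.946 CPM. Yap1 and Axl did not share the pattern: Yap1 was at 29.9 and 26.8 CPM against 27.7 in that cluster, and Axl at 2.09 and 0.924 against 3.25. Cluster 12 alone held 34 of the 38 Ankrd1 UMIs (89.5%), in 19 cells, with 1.99% of the library's UMIs. High Tead2 was not confined to clusters 12 and 16. Cluster 6 (257 cells), outside the other epithelial cells, held 31.9% of the library's Tead2 UMIs with 5.68% of all its UMIs. Tead2 levels of the acinar-like and fibroblast-like cells are given below.

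Clusters 12 and 16 also carried other programmes. The summed level of the fetal-like regenerative genes, which mark fetal and injured epithelium, was 1823 CPM in cluster 12 and 1543 in cluster 16, and 50.5 in the most numerous epithelial cluster. Immediate early genes summed to 8375 CPM in cluster 12, 2915 in cluster 16 and 2444 in that cluster. Mesenchymal markers summed to 152 CPM in cluster 12 and 823 in cluster 16, of which Vim made up 144 and 794, with Col1a1 at 4.17 and 1.85 CPM. Markers of pancreatic progenitors summed to 360 CPM in cluster 12 and 750 in cluster 16, against 155 over all cells of the class. Cluster 16 scored first for these markers, and was kept as epithelium without a lineage because none of them was among its 10 leading genes. Their part in the levels of the pathway genes was not tested. Without both clusters the same 8 genes were still at least 2-fold lower at E17.5 than at E12.5, Cyr61 was at 54.7 CPM and Ankrd1 had 0 UMIs.

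Joint detection in single cells at E17.5 was read over all other epithelial cells, and its link to the clusters was not tested. Of 258 thinned cells with a Cyr61 UMI, 8.91% also held Tead2, against 1.496% of 1604 cells without. For Wwtr1 the shares were 5.81% and 0.748%, and for Amotl2 5.04% and 1.06%. For these 3 genes and Ankrd1 (2.33% against 0.0623%) the intervals did not overlap. Ankrd1 had 0 UMIs outside clusters 12 and 16, so every cell with both Cyr61 and Ankrd1 lay in them. Without both clusters Tead2 was at 1.08 CPM (5.69 with them), Wwtr1 at 0.332 (2.07) and Amotl2 at 2.09 (3.94). Joint detection of these genes thus overlaps with the difference between clusters, and a link within clusters was not tested. The other genes gave no such separation. The intervals overlapped for Ctgf (2.33% and 0.623%), Lats2 and Axl. They also overlapped for Yap1 (5.43% and 4.61%) and Tead1 (5.81% and 4.55%).

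Mesenchymal cells in the E17.5 library carried more of most of these transcripts than its epithelium. Of 9 genes compared, 8 were at least 2-fold higher in the 118 fibroblast-like cells than in the other epithelial cells and none lower, where 19.4% of all genes were higher and 23.7% lower. The median log2 ratio was 3.24 for the 9 genes and -0.02 for all genes. Wwtr1 was at 60.6 CPM against 2.07, a ratio of 29.3 (20.2 to 41.8), while its paralog Yap1 was at 26.3 against 25.3. Cyr61 was at 516 CPM, 7.15-fold the epithelial level (6.42 to 7.93). Tead2 was at 89.6 CPM (15.7-fold), Lats2 at 18.4 (17.3-fold), Axl at 47.4 (11.9-fold) and Amotl2 at 46.1 (11.7-fold). Ctgf, at 13.2 CPM from 10 UMIs, was 5.44-fold higher and within 2-fold (0.95 on the log2 scale) as the mean of single cells. Ankrd1 had 0 UMIs in the fibroblast-like cells and was not compared. In smooth muscle-like cells Ctgf was at 89.8 CPM and Cyr61 at 161. All 11 immediate early genes were also at least 2-fold higher in the fibroblast-like cells, and their part was not tested. TMM scaling moved the split of calls here from 45.0% to 31.5% higher and shifted the median by -0.36, and Yap1 then lay below the epithelium (-0.33).

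**Figure D3:**
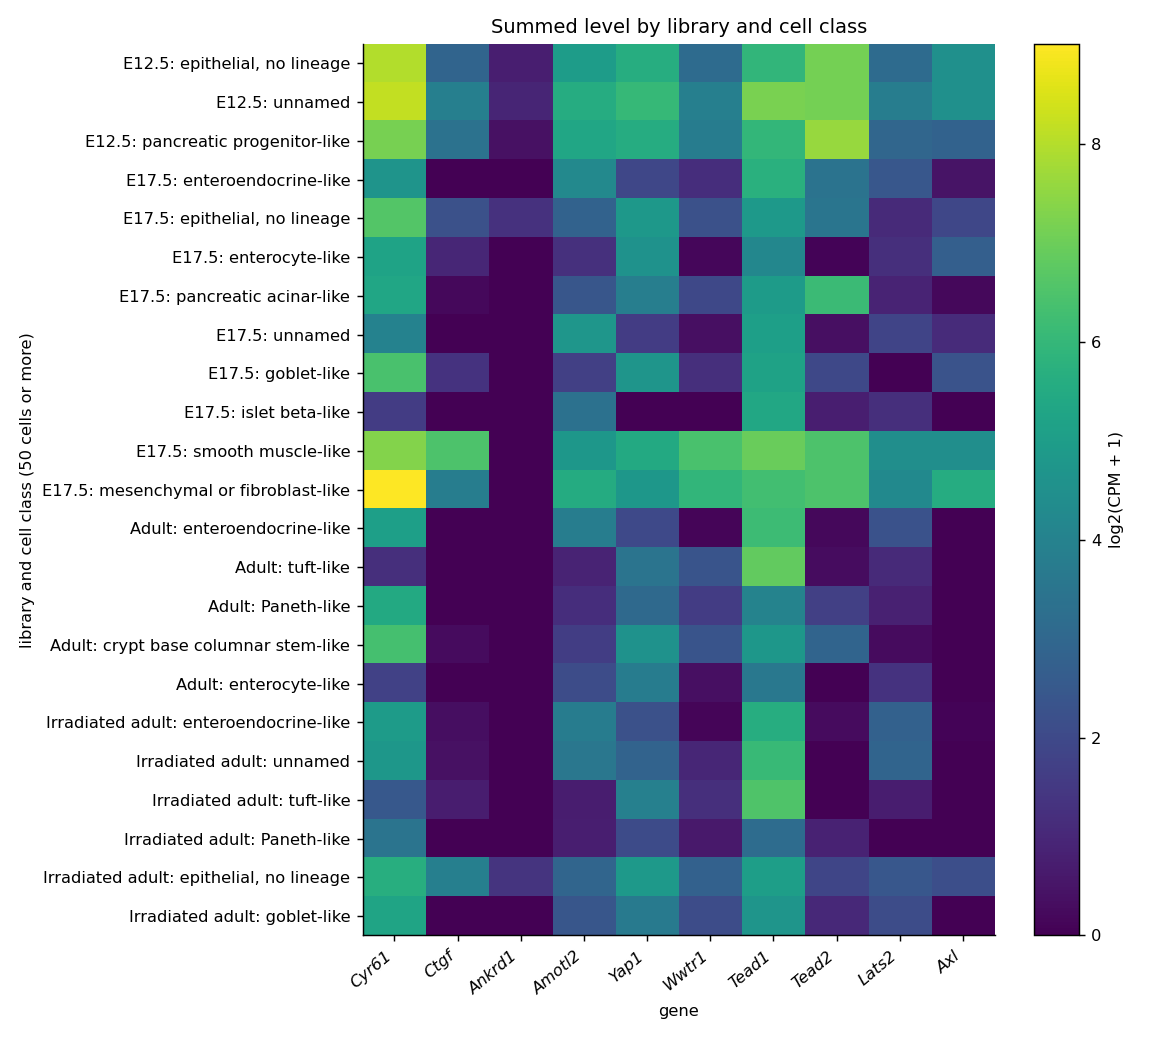
Colour map of the summed level of the 10 genes (columns) in each library and cell class of 50 cells or more (rows), as log2(CPM + 1) from 0 (dark) upward (bright). The E17.5 fibroblast-like row is bright for Wwtr1 (60.6 CPM), where the epithelial rows of that library are dark. Yap1 is at 26.3 CPM in that row, against 25.3 over the other epithelial cells pooled and 2.80 in the enteroendocrine-like row.

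Hormone-producing and chemosensory cells had their own pattern of the pathway genes. In enteroendocrine-like cells Tead1 was at 51.9, 72.4 and 48.6 CPM in the E17.5, adult and irradiated libraries. Yap1 was at 2.80, 2.98 and 3.66 CPM there, below the 25.3, 15.5 and 13.4 CPM of the other epithelial cells. Amotl2 was at 17.9, 13.1 and 12.8 CPM and Lats2 at 4.45, 3.84 and 6.05, above the other epithelial cells at each stage. Ctgf and Ankrd1 had 0 UMIs in enteroendocrine-like cells at E17.5 and in the adult. Adult tuft-like cells had Tead1 at 114 CPM, Yap1 at 10.2 and Cyr61 at 1.30. Islet beta-like cells of the E17.5 library held 0 Yap1 UMIs, and Cyr61 at 2.02 CPM, with Tead1 at 41.0. Acinar-like cells kept Tead2 at 70.1 CPM, where the other epithelial cells were at 5.69.

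Between E17.5 and the adult, 1 of 6 genes compared was at least 2-fold lower in enteroendocrine-like cells and none higher, where 11.1% of all genes were higher and 11.4% lower. This was Tead2, at 9.92 CPM at E17.5 and 0.157 in the adult (2 UMIs), a ratio of 63.3 (16.95 to 532). Most of the E17.5 level came from cluster 8 (207 cells, led by the hormone gene Sst and the endocrine progenitor gene Neurog3), where Tead2 was at 54.4 CPM and Amotl2 at 62.7. The call was lost under several other settings, named in the closing section. After irradiation none of 5 genes was called in either direction in these cells, where 1.59% of all genes were higher and 2.52% lower. Cyr61 was at 30.03 CPM after irradiation and 32.9 before, a ratio of 0.913 (0.804 to 1.04), and Lats2 at 6.05 and 3.84 (1.12 to 2.25-fold). The 3 comparisons across age and irradiation share libraries, so their values are set side by side and not combined.

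In the other epithelial cells of the adult, the sparse targets were near or at 0. Of 9 genes compared with E17.5, Ctgf and Axl were at least 2-fold lower and none was higher, where 5.87% of all genes were higher and 15.4% lower. The median log2 ratio was -0.61 for the 9 genes and -0.41 for all genes. Ctgf was found as 1 UMI in the adult, 30.1-fold below E17.5 with a wide interval (5.31 to 1199). Axl had 0 UMIs, which makes it 16.5-fold lower when set at 3 counts over the group, with a lower counting limit of 13.3-fold. Cyr61, Yap1, Tead1, Tead2, Amotl2, Wwtr1 and Lats2 stayed within 2-fold. Without E17.5 clusters 12 and 16, Ctgf was at 0.0805 CPM against 1.036 (1 and 50 UMIs) and lost its call under the pseudocount (-0.91), and Tead2 was higher in the adult (3.38 against 1.08 CPM, log2 ratio 1.08). As the mean of single cells, Amotl2 (-1.65) and Tead2 (-1.96) were lower as well. TMM scaling moved the share of higher calls over all genes from 27.6% to 49.1% and shifted the median by 0.32.

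Within the adult epithelium the pathway genes were unevenly spread over the lineages. The 103 stem-like cells, led by crypt base columnar markers, held 40.7% of the Cyr61, 43.5% of the Yap1 and 73.3% of the Tead2 UMIs of the library with 17.3% of all its UMIs. Cyr61 was at 80.1 CPM in stem-like, 43.1 in Paneth-like, 32.9 in enteroendocrine-like, 2.39 in enterocyte-like and 1.30 in tuft-like cells. Yap1 was at 23.5, 7.39, 2.98, 12.8 and 10.2 CPM in the same order. Tead1 had another order, at 26.0, 15.3, 72.4, 11.3 and 114 CPM, with the tuft-like cells at the top. The Paneth-like level rested mostly on 75 cells with a median of 30057 UMIs, which gave 3591062 of the 3922681 UMIs of that class.

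After irradiation, Ctgf was higher in the other epithelial cells, and Axl, Ankrd1 and Lats2 were above the adult with too few UMIs to be called. Of 7 genes compared, 1 was at least 2-fold higher and none lower, where 5.94% of all genes were higher and 17% lower. The median log2 ratio was 0.02 for the 7 genes and -0.38 for all genes. Ctgf was found as 71 UMIs after irradiation and 1 before, a ratio of 61.6 (10.7 to 2465). This call was lost under the stricter cell filter, a pseudocount of 10 or a minimum of 200 UMIs. Axl, with 18 UMIs against 0, was 5.20-fold higher when the adult group was set at 3 counts, with a lower counting limit of 3.81-fold. Ankrd1, with 8 against 0, was 2.31-fold higher when set in the same way, with a lower counting limit of 1.48-fold. All 8 of these Ankrd1 UMIs lay in 1 cell, and spread between cells is not covered by the limit. Lats2 was 2.79-fold higher (1.29 to 6.71) with 29 UMIs against 9. Cyr61 was not higher: its log2 ratio was -0.75, and that of Tead2 was -0.79. Yap1 was at 13.4 CPM against 15.5 and Tead1 at 18.9 against 18.7, within 2-fold under each scaling tried, although the sign of Yap1 flipped under TMM (0.17) and that of Tead1 as the mean of single cells (-0.27). Amotl2 was within 2-fold (3.35 against 2.17 CPM) but was called higher as the mean of single cells (1.38).

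**Figure D4:**
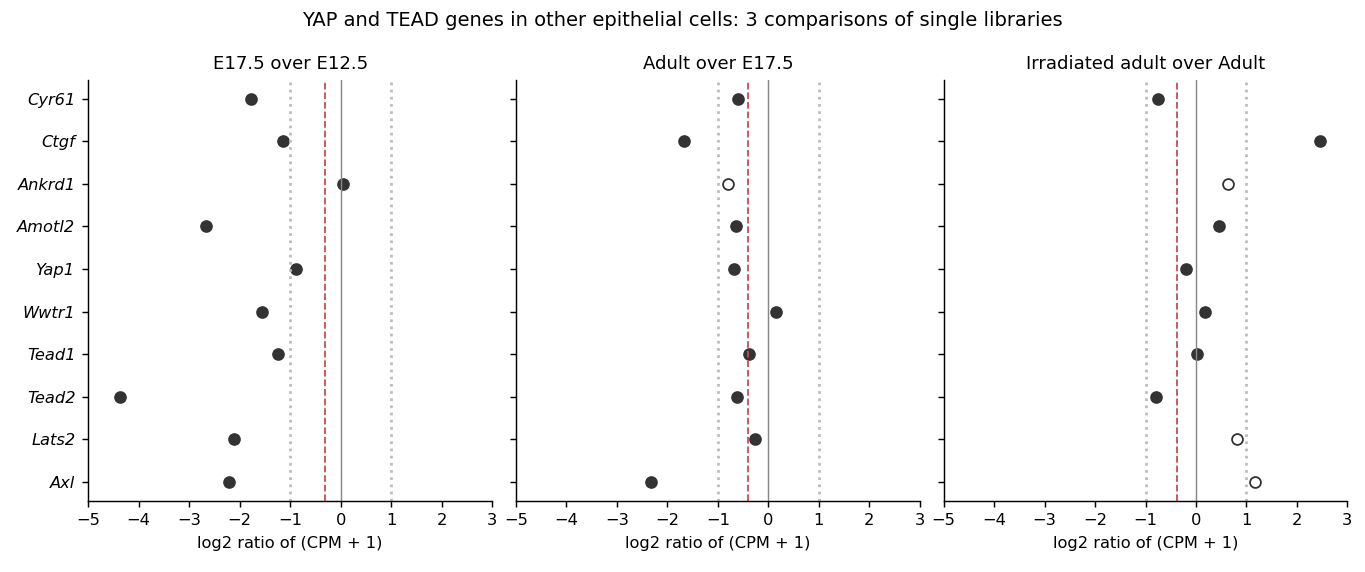
Log2 ratio of CPM + 1 (x axis) for each of the 10 genes (y axis) in the other epithelial cells, in 3 comparisons of single libraries. Filled points passed the minimum of 50 UMIs and open points did not, dotted lines mark 2-fold and the dashed line the median of all genes compared. At E17.5 over E12.5, 8 points lie beyond -1, and after irradiation Ctgf is the 1 filled point beyond 1.

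The class make-up of the adult libraries differed beside these values. Paneth-like cells gave 31.56% of the other epithelial UMIs in the adult and 50.88% after irradiation, with median UMIs of 2949 and 97751 per cell. Without them Ctgf was at 0.118 CPM in the adult and 10.1 after irradiation, and was again the 1 gene called. Cyr61 was then at 49.5 CPM in the adult and 46.3 after irradiation (log2 ratio -0.09), Lats2 at 0.705 and 4.12 from 6 and 29 UMIs, and Yap1 at 19.3 and 24.0 (0.30). TMM scaling moved the share of higher calls over all genes from 25.9% to 51.1% and shifted the median by 0.36. In Paneth-like cells, which make antimicrobial peptides beside the stem cells, Cyr61 was at 44.0 CPM in the deeper adult cluster and 10.0 in the irradiated one.

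The Ctgf signal came from 1 irradiated cluster of 97 epithelial cells (cluster 12, median 50518 UMIs), led by Ccnd1, Apoa4 and Ces2e. It held 71 of the 78 Ctgf UMIs (91.0%), 18 of the 19 Axl UMIs and all 8 Ankrd1 UMIs, with 13.4% of the library's UMIs. The Ctgf UMIs lay in 20 cells, and 3 of these cells held 29 of them (40.9%). Without those 3 cells Ctgf was at 8.27 CPM in the cluster, against 13.7 with them. All Ankrd1 UMIs came from 1 cell. Without the cluster Ctgf had 0 UMIs against 1 in the adult and could not be compared, and Cyr61 (-1.54), Yap1 (-1.48) and Tead2 (-1.23) were called lower.

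No irradiated cluster was named stem-like, so this cluster is set beside the adult stem-like cluster only as values. Cyr61 was at 80.1 CPM in the adult stem-like cells and 49.4 in the irradiated cluster. Yap1 was at 23.5 and 28.4, Tead1 at 26.0 and 32.0 and Wwtr1 at 4.07 and 5.98 CPM. Ctgf was at 0.194 and 13.7, Lats2 at 0.194 and 4.44, Axl at 0 and 3.47, Amotl2 at 2.13 and 6.76 and Tead2 at 6.40 and 2.70 CPM. The stem cell marker Olfm4 was at 2363 and 59.6 CPM, and the enterocyte gene Fabp1 at 182 and 3142. Genes of the fetal-like regenerative list were high in the irradiated cluster: Clu, which marks revival stem cells, was at 264 CPM against 0.970, and Ly6a, which encodes Sca-1, at 576 against 2.13. The proliferation gene Mki67 was at 334 CPM in the adult and 76.6 in the irradiated cluster.

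Within the irradiated cluster, the cells holding Ctgf had a higher level of Cyr61. The 20 cells with a Ctgf UMI had Cyr61 at 95.7 CPM (78.9 to 115) and the 77 without at 35.7 (30.1 to 42.1). These intervals do not cover spread between cells. Without the cell with most Cyr61 UMIs the whole cluster was at 44.1 CPM, against 49.4 with it. The levels of the 20 and the 77 cells were not recomputed without it, so its part in their difference was not tested. A Cyr61 UMI was held by 17 of the 20, among 57 cells with one in the cluster. The other genes rested on few UMIs, and their intervals overlapped for Wwtr1 (11.9 and 4.25 CPM), Lats2 (8.47 and 3.25), Axl (7.62 and 2.25) and Amotl2 (8.47 and 6.25). Of the 11 cells with an Axl UMI, 4 also held Ctgf. Fabp1 was at 131 CPM in the cells with Ctgf and 4031 in those without, and the goblet gene Muc2 at 387 and 27.5. Clu was at similar levels in both (303 and 252 CPM). The fibroblast markers Col1a1, Col3a1 and Dcn had 0 UMIs in the cells with Ctgf, and Vim was at 54.2 CPM there and 19.0 in the rest, with median UMIs of 51434.5 and 48177 per cell. A second irradiated cluster with the regenerative genes (cluster 15, 71 cells, unnamed) had Clu at 1284 and Ly6a at 1352 CPM, but Cyr61 at 7.55 CPM and 0 UMIs of Ctgf and Ankrd1, where 3 counts would be 22.7 CPM.

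**Figure D5:**
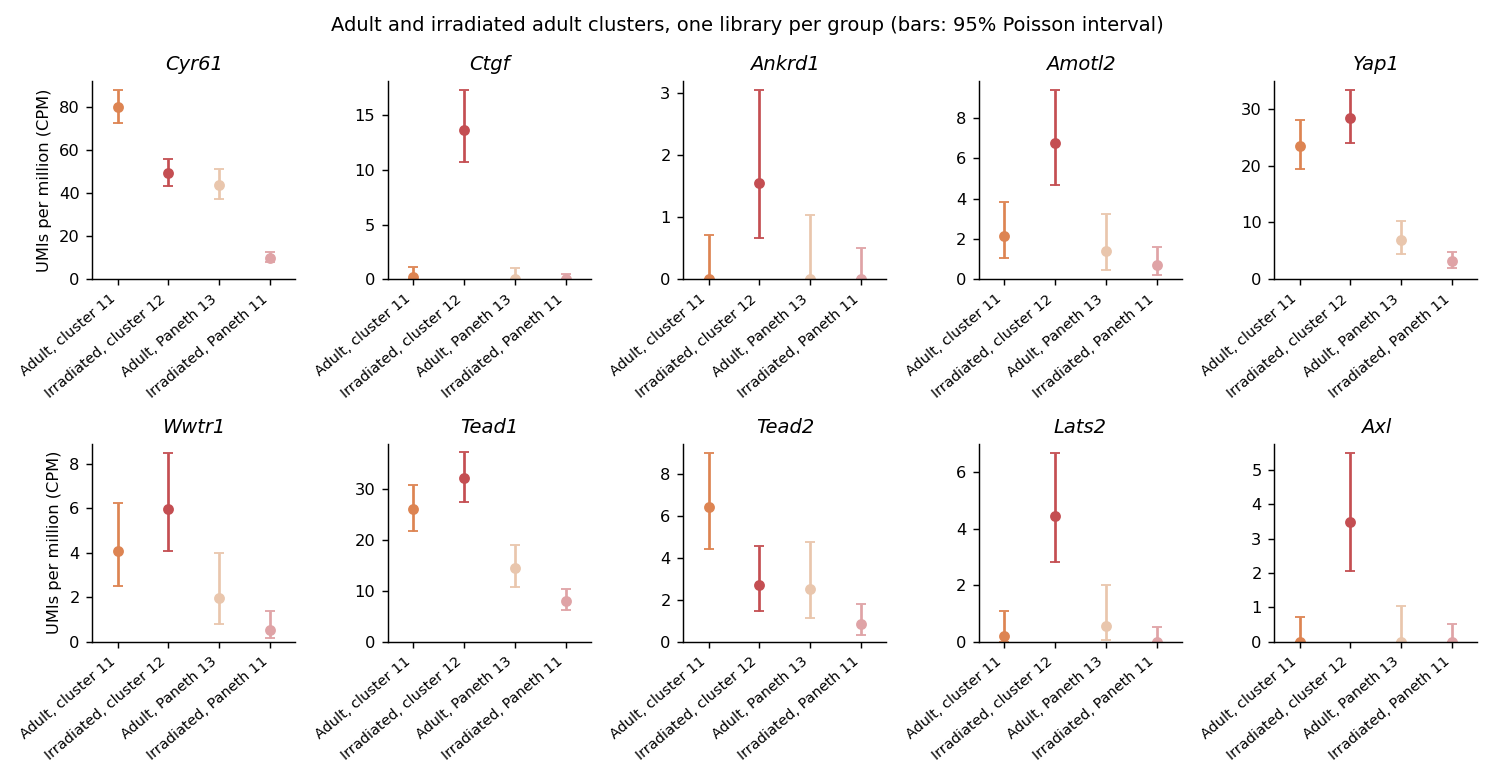
Level of each of the 10 genes in 4 clusters, the adult stem-like cluster 11, irradiated cluster 12 and the Paneth-like clusters 13 (adult) and 11 (irradiated) (y axis, CPM; bars, exact Poisson 95% intervals). Ctgf is at 13.7 CPM in irradiated cluster 12 and 0.194 in the adult stem-like cluster, while Cyr61 is at 49.4 and 80.1.

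The wider pathway was read against the shares of all genes given above. Between E12.5 and E17.5, 4 of 15 Hippo kinases, adaptors and upstream genes were lower and 1 higher, where 20.3% of all genes were lower and 12.9% higher, with Dchs1 (-3.29) and Frmd6 (-3.10) at 1 end and the kinase gene Taok3 (1.62) at the other. Of 8 junction partners and nuclear cofactors, 4 were lower, among them Ajuba (-3.00) and Wtip (-2.58), whose LIM proteins restrain LATS kinases. Of 14 further YAP and TAZ targets, 7 were lower and 1 higher, with Arhgef17 at -2.61, Ccdc80 at -2.48 and Dock5 at 1.26. The median log2 ratios of the 3 lists were -0.54, -1.26 and -1.05, against -0.30 for all genes. Immediate early genes went the other way, with 5 of 11 higher and none lower, led by Ier3 (1.93) and Zfp36 (1.45). Of the 8 fetal-like regenerative genes, 4 were higher and 1 lower, and the higher ones included the EGF receptor ligand genes Areg (4.47) and Ereg (2.15).

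Between E17.5 and the adult, 6 of 13 further targets were lower and 2 higher, with Rbms3 (-3.39) and Fjx1 (-3.01) lowest and Nt5e (1.57) and Nuak2 (1.14) highest. Of 14 Hippo kinases and upstream genes 2 were lower, near the 15.4% of all genes, and of 8 junction genes 3 were lower. The regenerative list was lower in 5 of 7 genes, with Clu at -5.65 and Anxa1 at -4.31. After irradiation, 3 of 8 further targets were higher and none lower: the tissue factor gene F3 (20.3 against 1.85 CPM), Myof (2.76 on the log2 scale) and Nt5e (1.58). Ajuba (2.39) and Wtip (1.28) were higher and Amot (-1.01) lower among 7 junction genes, and Wwc2 (1.33) was higher among 13 Hippo genes, where 5.94% of all genes were higher. All 6 regenerative genes compared were higher, and all 15 G2/M genes were lower, while none of 11 immediate early genes was called. Some of these calls depended on the scaling. Amot lost its call under TMM and as the mean of single cells, and Wwc2 as the mean of single cells. Higher further targets then numbered 2 as the mean of single cells. Lower G2/M genes numbered 13 under TMM and 14 as that mean, and 1 immediate early gene was higher under each. In enteroendocrine-like cells, Fjx1 (2.12) was the 1 higher gene of 10 further targets after irradiation.

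The genes whose levels most resembled each member over 19 sums of a library and class were ranked by Pearson correlation, as a description over sums that share libraries and depth. Levels were log2 values after adding 10 CPM. Sums well below 10 CPM therefore differed little, and for sparse genes a few high sums can set the correlation. Cyr61 was closest to Calu, Tyro3 and Depdc1a (each 0.933), and Ctgf to Rbpms2 (0.973), Ccdc106 and Il17d. Amotl2 was closest to Glis2 (0.973), Wasf1 and Ccdc136, and Axl to Adcy3 (0.975), Batf3 and Raver2. Among the regulators, Yap1 was closest to Rest (0.968), Gins3 and Chaf1b, and Wwtr1 to G0s2 (0.984), Gas1 and Arhgef25. Tead1 was closest to Bmpr2 (0.906), Mprip and Myo9a, and Tead2 to Pabpc4l (0.963), the angiomotin-family gene Amotl1 (0.962) and Pacsin3. Lats2 was closest to Fzd1 (0.970), Zfp385a and Dpysl3. Ankrd1, with under 200 UMIs, was not ranked.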

How the data were processed

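Processed gene-by-barcode matrices of UMI counts were used as deposited for 4 libraries. Per the submitters' processing notes the authors used Cell Ranger 3.1.0 and mm10. Per the labels, libraries were made with 10x Chromium 3′ version 3 chemistry from sorted cells. Counting settings were not given in the sources used here. From the counts, a floor of 500 genes and a ceiling of 20% mitochondrial UMIs were applied per cell (which passed 81.0%, 88.0%, 60.3% and 53.1% of barcodes), and Scrublet scores set by a rate of 0.8% per 1000 barcodes removed 153 to 193 doublets per library. Each library was clustered alone with scanpy 1.11.5 and Leiden at resolution 1 (2000 variable genes without the members and pathway lists, 30 components, 20 neighbours). Clusters were named from fixed markers, and the thresholds for naming (such as 3 markers with at least 50 CPM) were set after the clusters were seen. Counts were summed per class, with exact Poisson intervals for levels and exact Clopper-Pearson intervals for shares. A call needed a log2 ratio of at least 1 at a pseudocount of 1 CPM and 50 UMIs over both groups. The rule was tested on simulated Poisson sums with 200 changed genes, all of at least 200 UMIs and changed by well over 2-fold. Changed genes with fewer UMIs, changes near 2-fold and spread between cells or libraries were not covered. TMM scaling used edgeR 4.0.16. The genes named are the 10 members, up to 4 extremes per list and the 3 most alike genes per member. The members and lists were chosen with earlier results of these data known.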

Additional observations from a re-analysis of the deposited data

How the results depend on the processing

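Counts of called genes were recomputed under 13 to 17 other settings per comparison. Of these counts 159 lay within 1.5 times the reported one and 27 did not. The 159 take in counts reported as 0 that stayed at 0. E17.5 against E12.5, lower (8 genes): 5 with a pseudocount of 10. Adult against E17.5 in other epithelial cells, lower (2): 4 with the stricter cell filter (1000 genes, 10% mitochondrial), with mean single-cell CPM and with all gut epithelial cells pooled, 1 with a minimum of 200 UMIs, 0 with a pseudocount of 10, and 1 without E17.5 clusters 12 and 16, where the higher count was 1 (reported 0). Irradiated against adult, higher (1): 2 with mean single-cell CPM, a minimum of 1 UMI or unnamed clusters counted in, and 0 with the stricter filter, a pseudocount of 10, a minimum of 200 or without irradiated cluster 12. The lower count (0) was 1 with the stricter filter or a pseudocount of 0.1, and 3 without irradiated cluster 12, where the log2 ratio of Ctgf went from 2.46 to -0.11 on 0 against 1 UMI, since that cluster was picked for holding the Ctgf UMIs. Adult against E17.5 in enteroendocrine-like cells, lower (1): 2 with a minimum of 1, and 0 with every barcode, the stricter filter, doublets kept, resolution 2, the members used in clustering, a pseudocount of 10 or a minimum of 200. Fibroblast-like against epithelial cells, higher (8): 5 with a minimum of 200. The cause was not tested, except that a higher minimum leaves fewer genes compared. Of single log2 ratios this 1, of a called gene, reversed sign, 306 moved by more than their counting interval and 623 did not, and signs of genes within 2-fold could flip in both of the latter. The settings that leave out clusters, Paneth-like cells or count unnamed clusters in were chosen after seeing the data. No paired analysis was possible because each group is 1 library and the labels tie no animals across groups. Ratios of genes with few UMIs, such as Ctgf (1) in the adult, have wide counting intervals.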
